A study of Mus musculus with 6 samples.

Results

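The transcripts of BiP, GRP94 and 7 proteins that work with them in the lumen of the endoplasmic reticulum (ER) were compared between mouse testes with and without a germ cell deletion of Sel1L. The 9 genes, Hspa5, Hsp90b1, Hyou1, Sil1, Sdf2l1, Creld2, Manf, Hspa13 and Ppib, were matched by GENCODE M21 symbol to the Ensembl identifiers of the count files, which list 55536 genes. All 9 were found and all 9 were among the 21465 genes with enough counts to be tested. Each of the 6 libraries held the whole-testis RNA of 1 mouse aged 7 weeks. The 3 KOStra8 mice carried Sel1Lflox/∆ and the Stra8-Cre transgene, whose recombinase is expressed from the promoter of Stra8, a gene of male germ cells entering meiosis. The 3 HETStra8 mice were littermates recorded as Sel1Lflox/∆ without a Cre, while the methods of the study count both Sel1Lflox/∆ mice and Sel1Lflox/+;Stra8-Cre mice as HETStra8. The genotype of each HETStra8 mouse is not given, and no wild-type library was compared. The Cre is active in germ cells alone, and the study's staining found SEL1L still present in spermatogonia and Sertoli cells, so whole-testis RNA includes cells that keep it.

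BiP (also GRP78) is the HSP70 chaperone of the ER lumen, and GRP94 is the HSP90 chaperone of the same compartment. BiP binds and releases unfolded proteins in a cycle of ATP hydrolysis, in which J-domain proteins drive hydrolysis and nucleotide exchange factors bring about release. When unfolded proteins build up, the unfolded protein response (UPR) raises the transcription of BiP, GRP94 and many of their partners, in part through an ER stress response element (ERSE), a CCAAT box and a CCACG box set 9 bases apart. SEL1L is the adaptor of the ubiquitin ligase HRD1 in ER-associated degradation (ERAD), which removes misfolded proteins from the ER, and the comparison asks how the transcripts of these chaperones stand when that adaptor is deleted in germ cells.

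The libraries held between 28875108 and 36526695 counts. Sel1l, the targeted gene, had 1549, 1603 and 1413 counts in the HETStra8 mice and 846, 636 and 741 in the KOStra8 mice, and fell by 1.07 on the log2 scale (SE 0.104, adjusted p = 0.00061 in edgeR's quasi-likelihood test). When KOStra8 mouse 2 or KOStra8 mouse 3 was left out, the adjusted p was 0.0132 and 0.012, just above 0.01. Levels below are in CPM, the counts of a gene scaled to the size of its library, with libraries normalized by the trimmed mean of M values (TMM). Log2 fold changes are KOStra8 over HETStra8, with 95% intervals and p-values from edgeR's quasi-likelihood test, adjusted over all 21465 genes by the Benjamini-Hochberg method. Testis identity was clear from the markers: 7 genes of elongating spermatids summed to between 12000 and 13730 CPM in every library, while 5 of 6 epididymis genes had too few counts to be tested. Over all genes the counts of HETStra8 mouse 3 were nearer to the KOStra8 libraries (chi-square per degree of freedom 9.51 to 12.4) than to the other HETStra8 libraries (14.2 and 27.5), so BiP and GRP94 are also given without this mouse.

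The ERSE is shown first because it is the sequence by which several of these genes are known to be induced together. A promoter window in RefSeq on GRCm38.p6, from 250 bases before to 50 bases after the transcription start, was at hand for 5 of the 9 genes, Hspa5, Hsp90b1, Creld2, Ppib and Sdf2l1. Both strands of each window were searched for exact matches to the ERSE, CCAAT and CCACG with any 9 bases between them, and 3 of the 5 held it, against 39 of all 32851 windows (0.119%). The element was chosen for its known part in inducing several of these genes, so this share is no test of enrichment. The matches are printed 5′ to 3′ on the strand that reads CCAAT first, with both boxes in capitals. Distances are from the RefSeq start, which for Hspa5 and Hsp90b1 lies inside the longer GENCODE gene given below, so that the Hspa5 match falls within the GENCODE bounds of Hspa5.
Hspa5, gene strand, chr2:34772025-34772043, 65 to 47 bases before the start: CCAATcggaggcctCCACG
Hsp90b1, gene strand, chr10:86705638-86705656, 212 to 194 bases before the start: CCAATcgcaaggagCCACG
Hsp90b1, opposite strand, chr10:86705533-86705551, 107 to 89 bases before the start: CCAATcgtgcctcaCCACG
Creld2, opposite strand, chr15:88819520-88819538, 126 to 108 bases before the start: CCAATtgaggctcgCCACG

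Hsp90b1 held a match on each strand. The stretches upstream of Hsp90b1 and Creld2 are printed on the gene's own strand with the whole element in capitals, so that a match on the opposite strand reads CGTGG first.
Hsp90b1, chr10:86705510-86705694, minus strand: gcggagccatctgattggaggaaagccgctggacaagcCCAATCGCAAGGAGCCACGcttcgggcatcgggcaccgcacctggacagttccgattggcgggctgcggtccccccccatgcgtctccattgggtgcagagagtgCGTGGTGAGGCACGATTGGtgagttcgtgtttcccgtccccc
Creld2, chr15:88819396-88819645, plus strand: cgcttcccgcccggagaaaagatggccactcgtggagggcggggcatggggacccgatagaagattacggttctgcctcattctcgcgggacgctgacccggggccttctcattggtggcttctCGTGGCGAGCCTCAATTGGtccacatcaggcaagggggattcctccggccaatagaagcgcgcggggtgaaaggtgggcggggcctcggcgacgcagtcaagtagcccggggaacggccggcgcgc

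The shorter CCACG box alone was in all 5 windows, but also in 32.8% of all windows. The related element ERSE-II, ATTGG and CCACG with any 1 base between them, was in 12 of all windows (0.0365%) and in none of the 5. A match describes the letters of a window, and no factor binding was measured. No window was at hand for Hyou1, Sil1, Manf and Hspa13.

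BiP and GRP94 transcripts were both higher in KOStra8 testes, by small amounts, and neither passed the adjusted threshold. With a correction for GC content and length, described below, the log2 fold changes were 0.12 for BiP and 0.092 for GRP94. The 95% interval of GRP94 then ran from −0.031 to 0.22. The study reported BiP transcripts unchanged by qPCR, and no significant change of BiP and GRP94 protein on blots. Hspa5 (ENSMUSG00000026864, chr2:34771970-34777547, plus strand), which encodes BiP, was at 536, 544 and 553 CPM in the HETStra8 mice and 591, 617 and 598 CPM in the KOStra8 mice. Every KOStra8 mouse was above every HETStra8 mouse. The means were 544 ± 8.03 and 602 ± 13.5 CPM (SD, n = 3 each), a difference of 10.6% and a log2 fold change of 0.15 (95% interval 0.013 to 0.28, unadjusted p = 0.0331, adjusted p = 0.367). Leaving HETStra8 mouse 3 out put Hspa5 at 0.17 (adjusted p = 0.149 in edgeR's test). Hsp90b1 (ENSMUSG00000020048, chr10:86690209-86705509, minus strand), which encodes GRP94, was at 474, 479 and 530 CPM in HETStra8 and 603, 620 and 575 CPM in KOStra8 mice. Again the groups did not overlap, although the highest HETStra8 mouse, mouse 3, lay closer to the lowest KOStra8 mouse than to the other two HETStra8 mice. The log2 fold change was 0.28 (95% interval 0.13 to 0.43, unadjusted p = 0.00116, adjusted p = 0.15), a difference of 21.3%. Without HETStra8 mouse 3 the log2 fold change was 0.34 and the adjusted p 0.00524, and on all 6 mice the adjusted p was 0.032 in DESeq2 and 0.0209 in edgeR without the filter on low counts. These fits called more genes throughout, with 443, 129 and 385 of all genes at an adjusted p below 0.01, against 4 in edgeR with all mice and the filter. Leaving out each of the other 5 mice in turn left edgeR's adjusted p for Hsp90b1 between 0.214 and 0.531. For both genes an exact two-sided permutation test over the mice gave p = 0.1, which is the smallest that 3 mice against 3 allow.

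**Figure D1:**
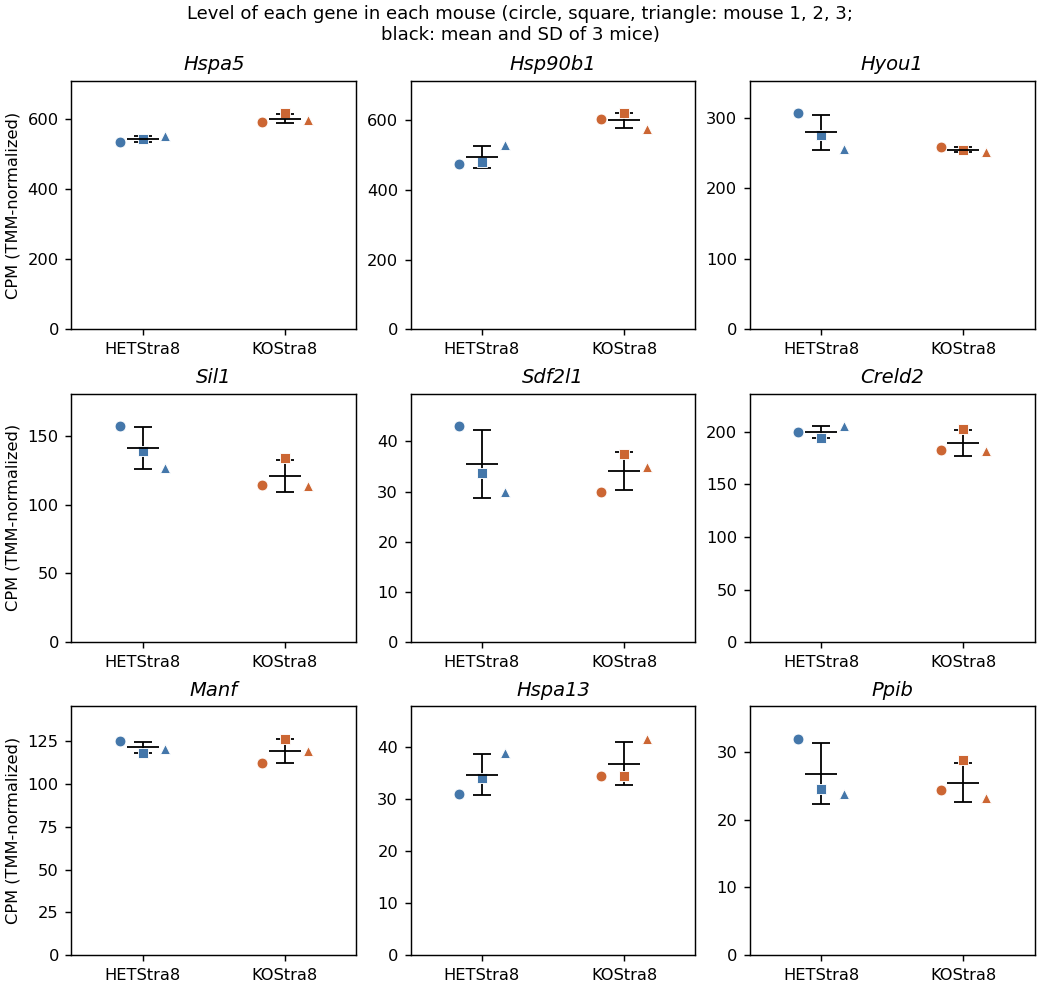
TMM-normalized CPM of each of the 9 genes in each mouse, from 0, with HETStra8 in blue and KOStra8 in orange; the marker shape gives the mouse number and the black bar the mean and SD of 3 mice. Hspa5 and Hsp90b1 are the genes whose groups do not overlap, with all KOStra8 mice higher.

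The ratio of GRP94 to BiP transcripts was higher in every KOStra8 mouse. Taken per kilobase of exon, it was 0.926, 0.925 and 1.01 in the HETStra8 mice and 1.07, 1.05 and 1.01 in the KOStra8 mice. By this measure BiP was above GRP94 in HETStra8 mice 1 and 2 and below it in the other 4 mice. The length is that of all annotated exons, 4229 bases for Hspa5 and 4032 for Hsp90b1. Mean annotated transcripts are 1418 and 1617.6 bases, so which of the pair is more abundant depends on the length used. The ratios of HETStra8 mouse 3 (1.006) and KOStra8 mouse 3 (1.009) were nearly equal, and the ratio was not tested. It was also not corrected for GC content: with the correction described below, the log2 fold change was 0.092 for Hsp90b1 and 0.12 for Hspa5, so the ratio leaned the other way.

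The nucleotide exchange factors of BiP lay on the other side of 0. Hyou1 (ENSMUSG00000032115, chr9:44379490-44392369, plus strand), which encodes the large HSP70 relative GRP170, was at 307, 275 and 256 CPM in HETStra8 and 259, 254 and 252 CPM in KOStra8 mice. The KOStra8 mice were close together and 1 of them lay above the lowest HETStra8 mouse, so that the groups overlapped. Its log2 fold change was −0.13 (95% interval −0.30 to 0.03, adjusted p = 0.499 in edgeR's test), but −0.061 without HETStra8 mouse 1 and −0.043 with a correction for GC content and length. Sil1 (ENSMUSG00000024357, chromosome 18), the other exchange factor, was at 157, 139 and 127 CPM in HETStra8 and 114, 134 and 113 CPM in KOStra8 mice. KOStra8 mouse 2 was above HETStra8 mouse 3, while the other two KOStra8 mice were below every HETStra8 mouse. The log2 fold change of Sil1 was −0.23 (95% interval −0.43 to −0.024, unadjusted p = 0.0307, adjusted p = 0.363 in edgeR's test), the lowest of the 9 genes, and −0.14 (unadjusted p = 0.122) without HETStra8 mouse 1.

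Other proteins that bind BiP or its clients differed less. Sdf2l1 (ENSMUSG00000022769, chr16:17130138-17132383, minus strand) encodes a partner of the J-domain protein ERdj3 and is a known UPR target. Its levels were 43, 33.6 and 29.8 CPM in HETStra8 and 29.9, 37.4 and 34.9 CPM in KOStra8 mice, with HETStra8 mice at both ends of the range. Creld2 (ENSMUSG00000023272, chr15:88819646-88826683, plus strand), a UPR-induced protein with disulfide isomerase-like activity, was at 199.7, 194 and 205 CPM in HETStra8 and 183, 203 and 182 CPM in KOStra8 mice. For Creld2, 2 KOStra8 mice were below every HETStra8 mouse and the third was among them. Manf (ENSMUSG00000032575, chr9:106838312-106891979, minus strand) encodes a secreted and ER-resident factor that binds BiP, and was at 125, 119 and 121 CPM in HETStra8 and 112, 127 and 119.6 CPM in KOStra8 mice. KOStra8 mice held both the highest and the lowest value of Manf. The log2 fold changes were −0.059 for Sdf2l1, −0.079 for Creld2 and −0.024 for Manf, and edgeR's adjusted p-values 0.889, 0.693 and 0.925. Expressed as folds, the 95% intervals were 0.786 to 1.17 for Sdf2l1, 0.85 to 1.06 for Creld2 and 0.879 to 1.1 for Manf.

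Hspa13 and Ppib were the lowest of the 9 per kilobase of annotated exon. Hspa13 (ENSMUSG00000032932, chr16:75745431-75767104, minus strand), a small HSP70 relative also called STCH, was at 31, 33.9 and 38.7 CPM in HETStra8 and 34.3, 34.4 and 41.5 CPM in KOStra8 mice, with a HETStra8 mouse lowest and a KOStra8 mouse highest. Ppib (ENSMUSG00000032383, chr9:66060222-66066623, plus strand), which encodes the prolyl isomerase cyclophilin B, was at 32, 24.6 and 23.8 CPM in HETStra8 and 24.4, 28.8 and 23.3 CPM in KOStra8 mice. The groups overlapped for both genes. The log2 fold change was 0.089 for Hspa13 (95% interval −0.15 to 0.33, adjusted p = 0.783) and −0.072 for Ppib (95% interval −0.35 to 0.21, adjusted p = 0.859) in edgeR's test.

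No member passed the threshold of the study, a fold over 2 with an adjusted p below 0.01, and with all 6 mice and the filter on low counts edgeR gave none an adjusted p below 0.05. Of all tested genes, 1 (0.00466%) passed the first threshold on the higher side and 1 (0.00466%), Sel1l, on the lower side. At any fold, 0.014% and 0.00466% passed an adjusted p of 0.01, and 0.0186% and 0.00466% an adjusted p of 0.05. The study reported many more genes at the first threshold, in a comparison whose software its methods do not name. Few genes of any kind passed it in the present fit. DESeq2 and limma-voom also called 0 of the 9 at the first threshold. At an unadjusted p below 0.05, 3 of the 9 passed in each of the 3 tools. The share of all genes at that p was 12.3% in edgeR, 12.8% in limma-voom and 7.23% in DESeq2, where genes of low counts were kept. In edgeR these were Hspa5 and Hsp90b1 on the higher side, where 7.13% of all genes and 9.77% of genes at 10 CPM or more in HETStra8 passed, and Sil1 on the lower side, where 5.12% did. Groups did not overlap for 2 of the 9 with KOStra8 higher and for 0 of the 9 with KOStra8 lower, against 9.33% and 8.43% of all genes. The intervals of all 9 genes ran from a fold of 0.743, the lower end for Sil1, to a fold of 1.34, the upper end for Hsp90b1, so that a 2-fold difference in either direction lay outside each of them. The lowest count of any member in any library was 793, for Ppib in HETStra8 mouse 3. Among fits that each lacked 1 mouse, 1 to 4 of the 9 had an unadjusted p below 0.05 in edgeR's test, with 1 when HETStra8 mouse 2 or KOStra8 mouse 3 was left out (8.81% and 6.56% of all genes in these fits) and 4 when HETStra8 mouse 3 was (19.8% of all genes).

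The 9 genes did not share a direction. KOStra8 was higher for 3 of them, Hspa5, Hsp90b1 and Hspa13, and lower for 6, against 48.5% higher and 51.5% lower among all genes. Without HETStra8 mouse 1 or without KOStra8 mouse 1, 5 of the 9 were higher. The median log2 fold change of the 9 was −0.059, and that of all tested genes −0.0094. Summed over the 9 genes the level was 1841 to 1904 CPM in HETStra8 and 1940 to 2055 CPM in KOStra8 mice. Hspa5 and Hsp90b1 together made up most of that sum. The counts of the 9 genes were 0.183% to 0.189% of a HETStra8 library and 0.194% to 0.206% of a KOStra8 library.

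The order of the genes by level was set per kilobase of exon, which allows genes of unequal length to be compared. Creld2 averaged 142 CPM per kilobase over the 6 mice, Hsp90b1 136 and Hspa5 135.5, and the ranges of these 3 genes overlapped. Creld2 was above Hsp90b1 in all 3 HETStra8 mice and below it in all 3 KOStra8 mice. A gap of 3.56-fold in the means separated Hspa5 from Sil1, with every mouse on the same side. Sil1 (38 CPM per kilobase), Hyou1 (36.9), Manf (34.2) and Sdf2l1 (31.4) formed a second set, in which each neighbour in the order overlapped the next. Ppib followed at 7.92 and Hspa13 at 5.22 CPM per kilobase, each below its neighbour in all 6 mice. These values use the length of all annotated exons of a gene together, and the length of Manf includes exons of transcripts that reach into the next gene. For Creld2 and Sdf2l1 that exon length equals the mean annotated transcript, at 1366 and 1108 bases. For the other genes it is longer, such as 4229 against 1418 bases for Hspa5 and 3436 against 868 for Sil1. The order therefore depends on the length chosen and is not read as an order of abundance.

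**Figure D2:**
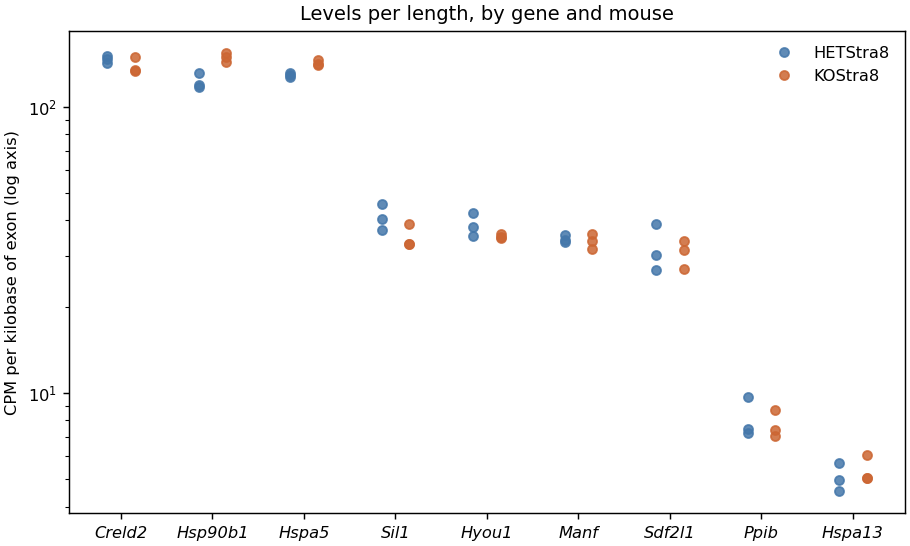
CPM per kilobase of exon for each gene on a log axis, 1 point per mouse, HETStra8 in blue and KOStra8 in orange, ordered by the mean. Creld2, Hsp90b1 and Hspa5 lie together at the top near 140 CPM per kilobase, and Ppib and Hspa13 lie lowest, at 7.92 and 5.22. The length is that of all annotated exons, which for most of the genes exceeds that of a mean transcript, so the order depends on it.

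The direction of the 9 genes moved with the base composition of their transcripts. The 3 genes with the lowest GC content, Hsp90b1 (42.8%), Hspa13 (43.2%) and Hspa5 (47.7%), were the 3 that were higher in KOStra8, and the 6 genes from Manf (48.7%) to Sdf2l1 (56.7%) were all lower. The same gradient was present over all genes: the median log2 fold change was 0.16 among 2239 genes of 40% to 45% GC, 0.02 among 3911 genes of 45% to 50%, −0.092 among 3644 genes of 50% to 55% and −0.14 among 2456 genes of 55% to 60%. Against the genes of their own GC bin, 7 of the 9 lay between the lower and the upper quartile. Hspa5 lay above the upper quartile of its bin (0.13) and Sil1 below the lower quartile of its bin (−0.16). Single libraries leaned in this way too, since across genes the Spearman correlation of GC content with the deviation of a library from the mean was 0.54, 0.42 and −0.099 in the HETStra8 mice and −0.39, −0.25 and −0.52 in the KOStra8 mice. The part of GC content in the differences between genotypes was not tested, as it moves with the groups.

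**Figure D3:**
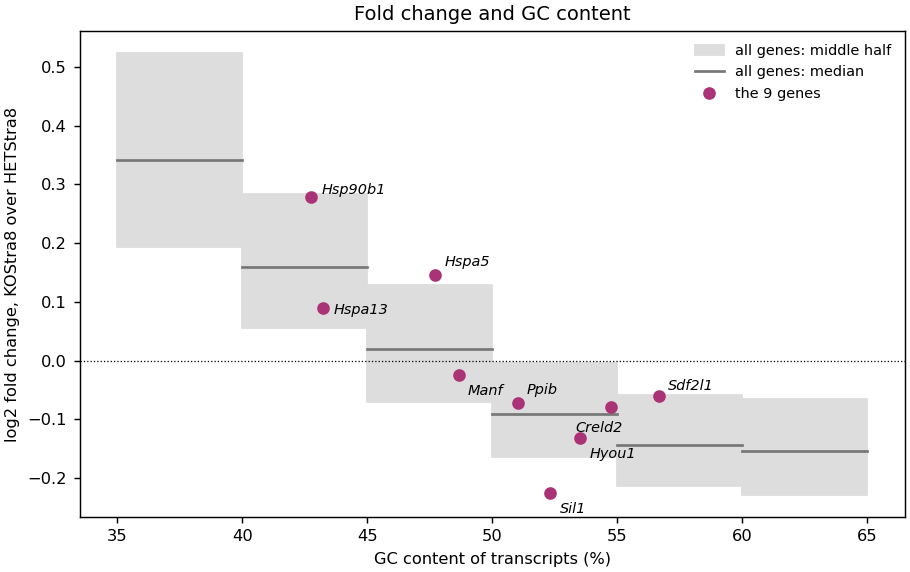
Log2 fold change of the 9 genes (points) against the GC content of their transcripts, over bars that span the lower to the upper quartile of all genes in bins of 5 percentage points, with the median as a line. The points follow the downward steps of the bars, with Hspa5 above its bar and Sil1 below.

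When the counts were corrected in each library for GC content and transcript length, 7 of the 9 log2 fold changes came closer to 0. Hsp90b1 went from 0.28 to 0.092 (95% interval −0.031 to 0.22, unadjusted p = 0.132 in edgeR's test). Hspa5 was nearly the same, at 0.12 (95% interval 0.015 to 0.23, unadjusted p = 0.0288, adjusted p = 0.623 in edgeR's test), and was the single member with an unadjusted p below 0.05, where 3.89% of all genes passed on the higher side and 3.39% on the lower. Sil1 was at −0.13 (unadjusted p = 0.0969 in edgeR's test). Hspa13 moved to −0.092, Sdf2l1 to 0.092 and Creld2 to 0.039, so that these 3 genes were on the other side of 0. After the correction 4 of the 9 were higher and 5 lower, against 49% and 51% of all genes.

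**Figure D4:**
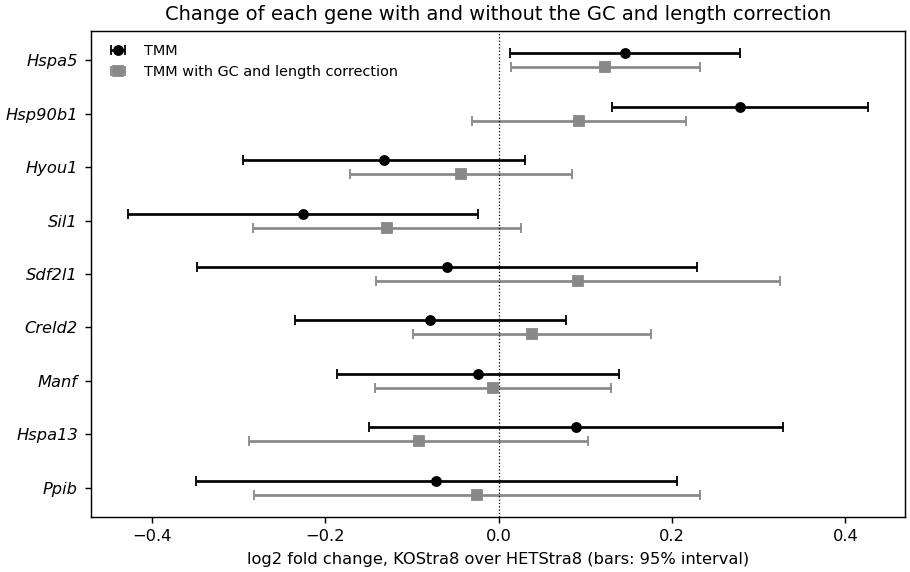
Log2 fold change of each gene, KOStra8 over HETStra8, with its 95% interval, uncorrected (black circles) and corrected for GC content and length of the transcripts (grey squares). The interval of Hspa5 stays above 0 with the correction, while those of Hsp90b1 and Sil1 then include 0.

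Summed levels of marker genes did not overlap between the groups for Sertoli cells and spermatocytes. They overlapped for the other cell types, including Leydig cells and round spermatids. The 8 Sertoli cell markers summed to 372.5 to 418 CPM in HETStra8 and 326 to 350.3 CPM in KOStra8 mice, with 0 of 8 higher in KOStra8, or 1 of 8 with the correction. The 6 Leydig cell markers, with 0 of 6 higher, ranged from 487 to 733 CPM and from 410 to 527 CPM. Most markers of the other somatic lists were lower too. Those higher were 0 of 4 for peritubular myoid cells, 1 of 6 for macrophages, 1 of 5 for endothelial cells and 0 of 4 for blood. With the correction these counts were 2, 0, 1 and 0. The 8 round spermatid markers summed to 1031 to 1090 CPM in HETStra8 and 985 to 1095 CPM in KOStra8 mice. The 9 spermatocyte markers summed to 1022 to 1239 and 1273 to 1313 CPM, with 6 of 9 higher with and without the correction. Among them Sycp1, Sycp3 and Hormad1, of 35.7% to 36.7% GC, had the highest log2 fold changes, at 0.97, 0.49 and 0.44. With the correction these were 0.56, 0.026 and −0.022. The sums were not corrected, and the part of cell types in the values of the 9 genes was not tested. In RNA of a whole testis, fewer cells of a type and less RNA per cell cannot be told apart.

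Counts of several members could include reads of other genes, and whether the counting used strand is not given in the sources used here. Manf overlaps Rbm15b on the same strand (31 and 28.9 CPM in HETStra8 and KOStra8), Dcaf1 (227 and 229 CPM) and the antisense gene 4930524O07Rik (16.2 and 15.3 CPM), so its level is uncertain. Of the 50-base stretches of Ppib and Hsp90b1 transcripts, 8.48% and 2.96% also occur in other genes. Alg12, a mannosyltransferase of the ER, starts 328 bp from Creld2 on the opposite strand and shares its promoter region. It was at 21.2 and 19.5 CPM in HETStra8 and KOStra8, a log2 fold change of −0.12 (adjusted p = 0.712 in edgeR's test). Ttc41 starts 302 bp from Hsp90b1 and was at 112 and 120 CPM, a log2 fold change of 0.091 (adjusted p = 0.706 in edgeR's test). The annotated genes that overlap Hsp90b1 had at most 46 counts in a library, against at least 14890 for Hsp90b1, and those that overlap Hspa13, Ppib or Sil1 had at most 23.

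Genes that carry an ERSE in their promoter window lay on both sides of 0. Of 37 such genes, 27 were tested and 14 of these were higher in KOStra8, with a median log2 fold change of 0.02 (15 and 0.011 with the GC and length correction). Without Hspa5, Hsp90b1 and Creld2, 12 of 24 were higher, with a median of −0.0056, and at an unadjusted p below 0.05 there were 3 genes higher and 1 lower, against 7.13% and 5.12% of all genes, and 0 of the 24 with the correction in edgeR's test. Without it, the higher genes were Dnajc3, Gm34297 (3.06 and 4.69 CPM) and Xlr3b (0.587 and 1.21 CPM, in a family of near-identical copies), and the lower one was Derl3. Of the rest, the lectin chaperones Calr and Canx had log2 fold changes of −0.059 and 0.12, and Syvn1, which encodes HRD1, −0.064. All 3 were on the other side of 0 with the correction, at 0.0017, −0.07 and 0.056. Pdia6, a disulfide isomerase, and Alg12 kept their side. Their log2 fold changes were 0.045 and −0.12, and 0.054 and −0.023 with the correction. Calr, Canx, Syvn1, Pdia6 and Alg12 were picked after their values were seen, so they do not stand for the list.

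The J-domain proteins, which deliver clients to BiP and start its ATP hydrolysis, were higher for 5 of 6 genes, with a median log2 fold change of 0.099. Dnajc3, also called P58IPK, was at 74.3 ± 9.98 and 90.2 ± 1.85 CPM (SD, n = 3 each) in HETStra8 and KOStra8, a log2 fold change of 0.28 (SE 0.0948, unadjusted p = 0.0106, adjusted p = 0.281 in edgeR's test). Sec63, the J-domain subunit of the translocon, had a log2 fold change of 0.17 (unadjusted p = 0.0492, adjusted p = 0.406 in edgeR's test). With the GC and length correction 3 of the 6 were higher and the median was 0.0047. Dnajc3 was then at 0.078 (unadjusted p = 0.353) and Sec63 at −0.053 (unadjusted p = 0.441 in edgeR's test).

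Other accessory factors of BiP and GRP94 were divided, with 7 of 13 higher and a median of 0.012, against 8 of 13 and 0.055 with the correction. Fkbp9, a prolyl isomerase of the ER, was at 26.3 ± 2.21 CPM in HETStra8 and 20.5 ± 1.74 CPM in KOStra8 (SD, n = 3 each), a log2 fold change of −0.36 (unadjusted p = 0.00646, adjusted p = 0.244 in edgeR's test), and remained at −0.36 with the correction. All 3 KDEL receptors, which return escaped BiP and GRP94 to the ER, were lower, from −0.26 for Kdelr3 to −0.034 for Kdelr2, with edgeR's adjusted p between 0.738 and 0.914. Of 12 lectin chaperones and disulfide isomerases 7 were higher (median 0.059), but 5 with the correction (median −0.041), and Txndc5, a disulfide isomerase, was at −0.34 (adjusted p = 0.354 in edgeR's test).

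A list of other UPR targets lay on both sides of 0, and most UPR sensors below it. This list shares Dnajb9, Dnajb11, Dnajc3, Pdia3, Pdia4, Pdia6 and Calr with the lists above and Xbp1 with the sensors, so the lists are not separate. At an unadjusted p below 0.05 in edgeR's test, Dnajc3 was higher, as given above, and Herpud1 and Derl3 were lower. Of 21 other UPR targets tested 8 were higher, with a median log2 fold change of −0.023, while with the GC and length correction 13 were higher and the median was 0.037. Herpud1, a UPR-induced factor of ERAD, was at 194 ± 10.4 and 169 ± 6.52 CPM (SD, n = 3 each), a log2 fold change of −0.20 (unadjusted p = 0.0138, adjusted p = 0.292 in edgeR's test), and −0.13 with the correction. Derl3, an ERAD component, was at −0.26 (unadjusted p = 0.0297, adjusted p = 0.36 in edgeR's test), and at −0.098 with the correction (unadjusted p = 0.352 in edgeR's test). Of 10 sensors and regulators 2 were higher, with Eif2ak3, which encodes PERK, at 0.16 and Creb3l1 at −0.27, and 0 of the 10 had an unadjusted p below 0.05 in edgeR's test. The median of the sensors was −0.11, and −0.083 with the correction.

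HSP70 and HSP90 relatives outside the ER lumen included the highest log2 fold change of the 8 lists grouped by role. Hsp90aa1, a cytosolic HSP90, was at 1619 ± 222 and 2087 ± 24 CPM (SD, n = 3 each), a log2 fold change of 0.37 (SE 0.084, unadjusted p = 0.000755, adjusted p = 0.135 in edgeR's test) that was 0.33 with the correction. Hspa4 and Hspa4l, which encode HSP110-type relatives of GRP170 in the cytosol, were at 0.20 each, with adjusted p-values of 0.299 and 0.343, and at 0.06 and 0.097 with the correction. Hspa1l, an HSP70 of spermatids, was at −0.15 (adjusted p = 0.376), or −0.061 with the correction, and 4 of the 10 genes were higher, against 6 of 10 with the correction.

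**Figure D5:**
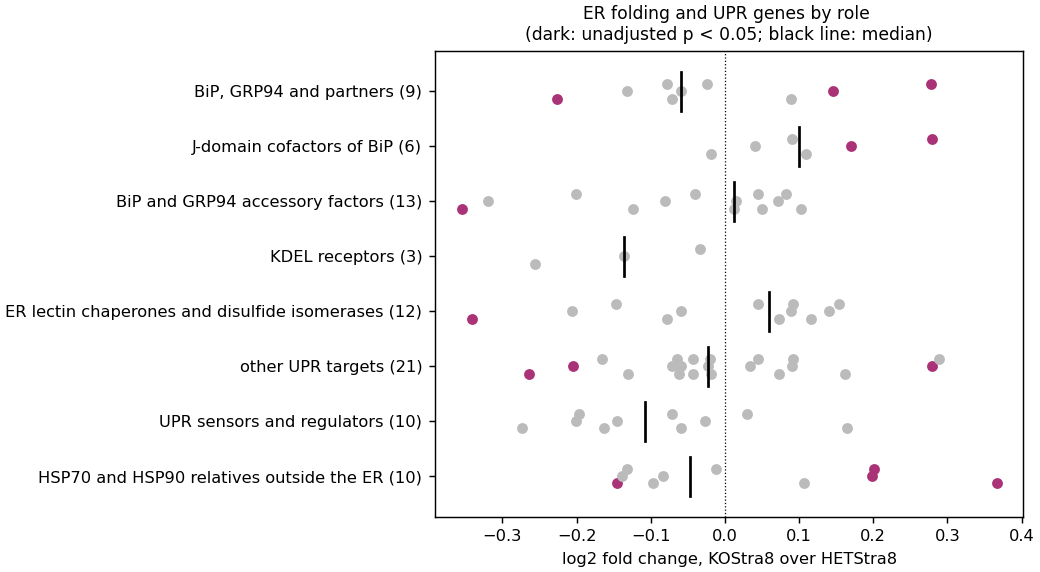
Log2 fold change of every tested gene in 8 lists of ER folding and UPR genes and of HSP70 and HSP90 relatives outside the ER. Each point is 1 gene, and a gene in more than 1 list is shown in each of its lists. The number tested is in brackets, the median is a black line and genes of unadjusted p below 0.05 in edgeR's test are in purple. The medians of all 8 lists lie between −0.14 and 0.099, and the points of most lists spread to both sides of 0.

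The genes whose pattern over the 6 mice was most like that of BiP were sought among 10012 genes of at least 10 CPM, by the root mean square difference of mean-centred log2 CPM. The nearest to Hspa5 were Gm10644 (0.022), Gm15104 (0.024) and Pabpc1 (0.024), and the nearest to Hsp90b1 were Carnmt1 (0.017), Adal (0.019) and Slc25a36 (0.025). Hsp90b1 ranked 949 in nearness to Hspa5, at a difference of 0.082, and Hspa5 ranked 219 in nearness to Hsp90b1. The other members were further from Hspa5, at ranks of 1651 to 8394.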

How the data were processed

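RNA-seq was performed on testes of 3 KOStra8 and 3 HETStra8 mice, 1 library per mouse, grouped by the sample titles. Libraries were directional and made from poly(A)+ RNA, and sequenced as paired-end reads. The authors deposited raw read counts per Ensembl gene for each library. The submitters' processing notes name the build GRCm38 (mm10), STAR 2.7.1a, StringTie 2.0.4, featureCounts 1.6.0 and other tools without their roles. The genes and lists were chosen with earlier results of these data known.

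Differences between the groups were fitted to these counts by edgeR 4.0.16 under R 4.3.3 (genes kept by filterByExpr, TMM, robust quasi-likelihood test), and p-values were adjusted over 21465 genes by the Benjamini-Hochberg method. They weigh the difference between the groups against the spread between mice. The biological coefficient of variation was 0.16, with 3 mice per group and 28875108 to 36526695 counts per library. It is a single value for the fit and does not give the precision of each gene. Among the 9 genes, the SE of the log2 fold change ran from 0.062 for Hspa5 to 0.13 for Sdf2l1. GC content and transcript length were corrected in each library by loess (span 0.3, genes above 2 log2 CPM). Lengths, GC content and positions came from GENCODE M21, and promoter windows from RefSeq on GRCm38.p6. The fit was also run on simulated data with changes far larger than those of the 9 genes. That run does not show how well changes of their size are found. Alternatives were DESeq2 size factors, library totals, no count filter, at least 10 counts in every library, DESeq2 1.42.0, limma-voom (limma 3.58.1), a replicate block, the correction with and without that block, and each mouse left out. Genes named besides the 9 were Sel1l, overlapping genes and those starting within 1 kb (1000 bp), the 3 nearest in pattern, and in each list every gene at an unadjusted p below 0.05 or, with none, the highest and the lowest. Calr, Canx, Syvn1, Pdia6 and Alg12 were named in the ERSE list after their values were seen. No pair of libraries agreed within sampling noise.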

Additional observations from a re-analysis of the deposited data

How the results depend on the processing

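No member passed a fold over 2 with an adjusted p below 0.01 under any alternative run. The count of members at an unadjusted p below 0.05 in edgeR's test was 3, but 1 with the GC and length correction and 0 with the replicate block and that correction together, and between 1 and 4 with each mouse left out. The share of all genes at that p was 12.3%, 7.29% and 7.04%, and 6.56% to 19.8%, in the same fits. The count of members higher in KOStra8 was 3, and between 2 and 5 with each mouse left out. With the GC and length correction the log2 fold change changed sign for Sdf2l1 (0.092, and 0.096 with the replicate block), Creld2 (0.039 and 0.0398) and Hspa13 (−0.092 and −0.095). In fits that each lacked 1 mouse, log2 fold changes ran from −0.16 to 0.10 for Sdf2l1, −0.061 to 0.026 for Manf, −0.0079 to 0.19 for Hspa13, −0.16 to 0.074 for Ppib, 0.25 to 0.34 for Hsp90b1, −0.18 to −0.061 for Hyou1, −0.30 to −0.14 for Sil1, −0.13 to −0.048 for Creld2 and −1.13 to −1.01 for Sel1l. The cause of these changes was not tested. The log2 fold changes of Hspa5, Hsp90b1, Hyou1 and Sil1 kept their sign in every alternative.

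The labels do not say that mice of the same number share a source, so the numbers were not treated as pairs. Deviations of same-numbered mice from their group means correlated at −0.073, −0.12 and 0.18, and those of mice of unlike number at −0.19 to 0.25. Not every mouse correlated best with its own number. The deviations of a group sum to 0, so these correlations cannot decide whether the numbers are pairs. With the replicate block the log2 fold change was 0.15 for Hspa5 (adjusted p = 0.447 in edgeR's test) and 0.28 for Hsp90b1 (adjusted p = 0.124 in edgeR's test). The count of members at an unadjusted p below 0.05 was then 2, with 12.3% of all genes at that p. The number of all genes at an adjusted p below 0.01 was 32 against 4. The lowest counts, for Ppib, Hspa13 and Sdf2l1, went with the widest intervals.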
